A study of Homo sapiens with 6 samples.

Results

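Genes that start DNA replication at origins and run the replication fork were followed across knockdown of BMI1 and of FAL-1 in A2780, a human ovarian cancer cell line. The set holds 55 genes listed by symbol, out of 18418 genes measured, and all 55 had a probe set annotated to that single symbol. A gene with several probe sets was represented by the one that was brightest on average over the 6 arrays. The list was drawn up with earlier results of these data known, so its direction of change is not independent evidence.

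Replication origins are licensed in G1 phase, when the origin recognition complex, CDC6 and CDT1 load the MCM2-7 helicase onto DNA. In S phase the kinase CDC7 with DBF4, together with CDC45 and the GINS complex, turns the loaded helicase into an active one, and polymerases, the clamp PCNA and its loader copy the strands. Many of these genes are transcribed in bursts around the start of S phase under E2F transcription factors, so their mRNA is known to be scarce in cells that have left the cycle.

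Lentivirus delivered short hairpin RNAs (shRNAs), which deplete the transcript they match. One target was the Polycomb protein BMI1, a chromatin repressor, and the other was the long non-coding RNA FAL-1. The groups were BMI1 shRNA (the hairpins BMI1 shRNA1 and BMI1 shRNA2, 1 array each), BMI1 Ctrl (1 array), FAL-1 shRNA (FAL-1 shRNA1 and FAL-1 shRNA2, 1 array each) and FAL-1 Ctrl (1 array). All cells, controls included, were infected and were collected 96 hours later, with the virus medium replaced at 24 hours. All values are log2 array values, and a change is the hairpin's value minus that of its target's own control.

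Array medians lay between 6.94 and 7.09, and arrays correlated at 0.973 to 0.995 over the probe sets. The BMI1 probe set, shared with the readthrough transcript COMMD3-BMI1, read 8.73 with BMI1 shRNA1 and 9.99 with BMI1 shRNA2, against 10.64 in BMI1 Ctrl, or 26.8% and 64.0% of that control. No probe set used here carries FALEC, the symbol of FAL-1, and the depletion of that RNA was not checked. For the cell line label, the keratins KRT8 and KRT18 read 8.45 or more on every array. EPCAM, CDH1 and PAX8, which mark many ovarian carcinomas, lay below each array's median. WT1, counted with these as an epithelial marker, read 6.74 to 7.05. The leukocyte, endothelial and liver markers PTPRC, CD3E, PECAM1, VWF and ALB read 6.39 or less, and the collagen genes COL1A1 and COL1A2 and the proteoglycan gene DCN read 8.14 or more.

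With both targets the replication genes were, as a group, at lower levels than in the controls, but by very different amounts with the individual hairpins. The median change of the 55 genes was -0.38 with BMI1 shRNA1 and -0.59 with BMI1 shRNA2, and it was -0.06 with FAL-1 shRNA1 and -0.998 with FAL-1 shRNA2. The medians over all 18418 genes were -0.01, 0.02, 0.01 and 0.05 in the same order. With FAL-1 shRNA2 all 55 genes lay below FAL-1 Ctrl, where 42.0% of all genes did, and the changes ran from -1.93 to -0.05. With FAL-1 shRNA1 they ran from -0.71 to 0.28, and 38 genes lay below the control, where 48.5% of all genes did. In RNA from whole cultures, fewer cells in S phase and less of each mRNA per cell cannot be told apart.

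Counted over both hairpins of a target, 52 of 55 genes lay below BMI1 Ctrl with both BMI1 hairpins, where 30.7% of all genes did, and none lay above it with both (32.9% of all genes). For FAL-1, 38 genes lay below FAL-1 Ctrl with both hairpins, where 27.7% of all genes did, and none lay above it with both (37.2%). Across all 4 hairpins, 36 genes lay below their own control throughout, where 14.1% of all genes did, and none lay above it throughout (17.0%). Set against both control arrays, 48 genes lay below both with both BMI1 hairpins (21.8% of all genes) and 30 with both FAL-1 hairpins (17.2%).

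The size of the reductions differed between hairpins. A reduction of at least 1.5-fold was seen for 11 genes with BMI1 shRNA1 (3.26% of all genes), 28 with BMI1 shRNA2 (3.85%), 2 with FAL-1 shRNA1 (1.56%) and 45 with FAL-1 shRNA2 (7.05%). No replication gene was at least 1.5-fold higher with any hairpin, where 1.75%, 1.97%, 0.956% and 4.15% of all genes were, in the same order. A reduction of at least 1.5-fold with both hairpins was seen for 9 genes with BMI1 knockdown (0.901% of all genes) and for 2 genes with FAL-1 knockdown (0.635%). The 9 were ORC1, CDC6, MCM6, CDC45, POLD1, POLD3, TK1, CLSPN and UHRF1, and the 2 were WDHD1 and HELLS. With both controls pooled, or with the other target's control, the FAL-1 count was 1. A reduction of at least 2-fold was seen for 27 genes with FAL-1 shRNA2 (2.43% of all genes), for 7 genes with BMI1 shRNA2 (0.619%), and for none with BMI1 shRNA1 (0.516%) or FAL-1 shRNA1 (0.201%). Both hairpins of a target share 1 control array, so these counts are descriptions.

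**Figure D1:**
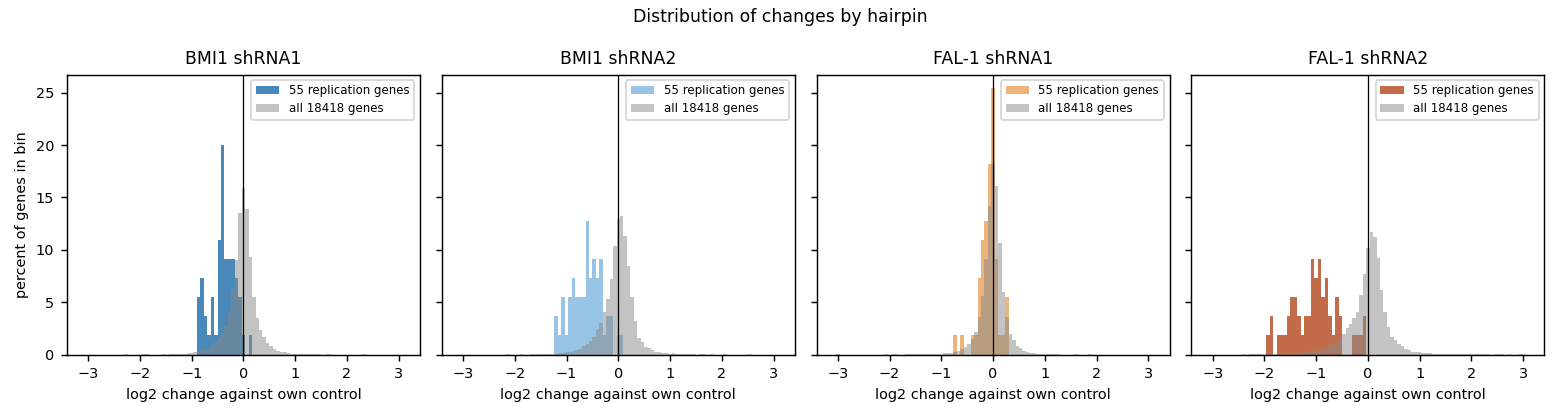
Histograms of the log2 change against the target's own control for the 55 replication genes (coloured) and all 18418 genes (grey), 1 panel for each hairpin, as percent of genes in each bin. The replication genes sit left of 0 with BMI1 shRNA1, BMI1 shRNA2 and FAL-1 shRNA2 (medians -0.38, -0.59 and -0.998) and around 0 with FAL-1 shRNA1 (median -0.06).

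No single gene passed the test for any comparison. In limma's fit of all 18418 genes on all 6 arrays, every one of the 55 genes had an adjusted p of 0.9998 for BMI1 knockdown and of 0.9991 for FAL-1 knockdown. For the average of both knockdowns the adjusted p lay between 0.907 and 0.922. No gene of the array passed at 0.05 in these comparisons. At an unadjusted p under 0.05, limma returned none of the 55 for BMI1 knockdown (1.56% of all genes were lower and 1.03% higher), WDHD1 for FAL-1 knockdown (1.5% lower and 1.55% higher) and UHRF1 for the average (2.87% lower and 2.35% higher). WDHD1 and UHRF1 were both on the lower side. These unadjusted counts depend on single arrays. When either FAL-1 hairpin array was left out, only the BMI1 pair still gave a spread, and FAL-1 was left with a single array on each side. The BMI1 count then rose although no BMI1 value had changed, so such counts are not given. No gene passed after adjustment in those fits either. Only the hairpin pairs give an estimate of spread, which leaves 2 residual degrees of freedom, and the single controls are taken to vary as the hairpins do. The labels do not say that arrays came from separate cultures. The p-values therefore cover only the spread between these arrays, and the small number of arrays limits the precision. That spread is between different hairpins of a target, treated as replicates. It mixes differences in hairpin effect with spread that may be technical.

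The difference between the knockdowns was tested too. The mean of the 2 hairpin changes had a median over the genes of -0.47 for BMI1 and -0.53 for FAL-1, beside 0.01 and 0.03 over all genes. The FAL-1 median was -0.06 without FAL-1 shRNA2 and -0.998 without FAL-1 shRNA1. The BMI1 change minus the FAL-1 change had a median of 0.08, which ran from -0.40 to 0.55 when each hairpin array was left out in turn, and no gene passed limma's test of that difference (adjusted p = 0.9999 for each of the 55). At an unadjusted p under 0.05, limma returned none of the 55 for the difference, against 0.337% of all genes on the lower side and 0.467% on the higher side. The 2 sets of changes share no array. Across the 55 genes the mean changes correlated with Pearson's r = 0.570 and Spearman's rho = 0.604, and across all 18418 genes with 0.562 and 0.467. This is a correlation across genes, which are not independent replicates. The control arrays themselves differed too. FAL-1 Ctrl minus BMI1 Ctrl had a median of -0.05 over the 55 genes and a range from -0.79 for HELLS to 0.37 for RPA2. Its quartiles were -0.21 and 0.09, against -0.08 and 0.14 over all genes.

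The hairpins of each target were not equal. The second hairpin gave the lower value for 54 of 55 genes with FAL-1 (43.2% of all genes) and for 46 with BMI1 (43.3%). With FAL-1, 23 genes were at least 2-fold lower with FAL-1 shRNA2 while within 1.2-fold of the control with FAL-1 shRNA1, where 1.41% of all genes were. FAL-1 shRNA2 was the lowest of the 6 arrays for 45 genes, where 17.4% of all genes had their lowest value there. The BMI1 level did not run in the same order: BMI1 shRNA1, with 26.8% of the control BMI1 level, had a median replication change of -0.38, and BMI1 shRNA2, with 64.0%, had -0.59. CDKN1A, which encodes the CDK inhibitor p21, read 10.34 and 10.65 with BMI1 shRNA1 and BMI1 shRNA2, against 9.50 in BMI1 Ctrl. It read 10.17 and 11.70 with FAL-1 shRNA1 and FAL-1 shRNA2, against 9.65 in FAL-1 Ctrl, and was thus highest on the array on which most replication genes were lowest. Marker genes also differed on that array. The largest rises among the epithelial and fibroblast markers were in KRT8, at 11.07 against 9.28 in FAL-1 Ctrl, and COL1A2, at 11.03 against 9.84. EPCAM, at 6.34 against 6.36, and DCN, at 9.78 against 9.94, were slightly lower. Of the epithelial markers, 5 of 6 lay above FAL-1 Ctrl with FAL-1 shRNA2 and 2 of 6 with FAL-1 shRNA1, and of the fibroblast markers 2 of 3 and 3 of 3. Of all 18418 genes, 10687 lay above FAL-1 Ctrl with FAL-1 shRNA2 and 9489 with FAL-1 shRNA1. With BMI1 shRNA1 and BMI1 shRNA2, 4 and 6 of the 6 epithelial markers and 1 and 3 of the 3 fibroblast markers lay above BMI1 Ctrl. So did 8853 and 9972 of all 18418 genes. Summed on the linear scale, the epithelial markers read 1678 and 2231 with the BMI1 hairpins, against 1589 in BMI1 Ctrl. With the FAL-1 hairpins they read 1240 and 3264, against 1419 in FAL-1 Ctrl. These sums come mostly from KRT8 and KRT18, since EPCAM, CDH1, PAX8 and WT1 read 7.1 or less on every array. Summed likewise, the fibroblast markers read 2007 and 2223 with the BMI1 hairpins, against 1936 in BMI1 Ctrl. With the FAL-1 hairpins they read 2958 and 3475, against 2240 in FAL-1 Ctrl. The part of the BMI1 level, of CDKN1A and of these markers in the replication values was not tested.

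**Figure D2:**
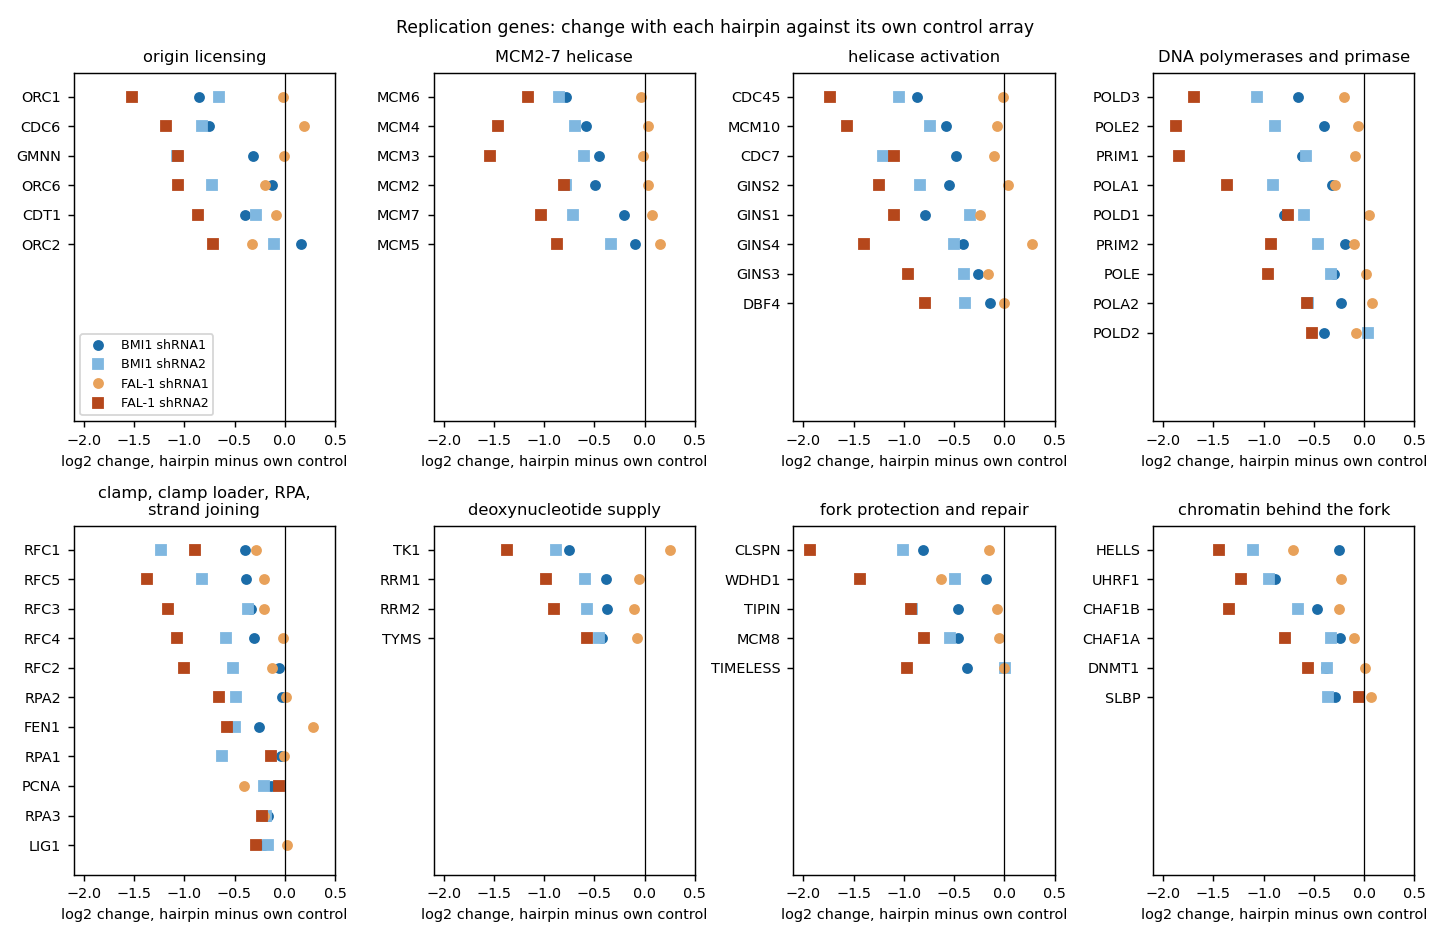
Log2 change against the target's own control for each of the 55 genes and each hairpin, grouped by role and ordered within a role by the average change. FAL-1 shRNA2 (dark red squares) lies farthest left for most genes, FAL-1 shRNA1 (orange circles) lies near 0, and the BMI1 hairpins (blue) lie between them, while PCNA, RPA1, RPA3, LIG1 and SLBP lie close to 0 with FAL-1 shRNA2.

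Promoter sequences were compared because E2F sites are a known feature of this gene class. RefSeq promoters (GRCh38.p14), from 250 bases before to 50 bases after an annotated start, were given for 49 of the 55 genes, with 63 entries in all. MCM4, MCM5, GINS4, POLD3, RPA2 and RPA3 are named only. The promoters printed are the 3 with the lowest average change among genes with an E2F match (CLSPN, HELLS and UHRF1) and the 2 of the genes with the highest average change (LIG1 and SLBP). They lie at chr1:35769929-35770228 on the minus strand for CLSPN, chr10:94545538-94545837 on the plus strand for HELLS and chr19:4909251-4909550 on the plus strand for UHRF1, which has 3 entries. LIG1 lies at chr19:48170295-48170594 and SLBP at chr4:1712270-1712569, both on the minus strand. Each is written 5′ to 3′ on the gene's strand, and capitals mark E2F-type matches on either strand.
CLSPN: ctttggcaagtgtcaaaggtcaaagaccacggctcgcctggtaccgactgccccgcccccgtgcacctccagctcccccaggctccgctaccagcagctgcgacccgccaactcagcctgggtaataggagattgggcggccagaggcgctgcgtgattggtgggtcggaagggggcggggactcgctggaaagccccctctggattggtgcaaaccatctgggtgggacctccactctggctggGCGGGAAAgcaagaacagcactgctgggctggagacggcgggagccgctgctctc
HELLS: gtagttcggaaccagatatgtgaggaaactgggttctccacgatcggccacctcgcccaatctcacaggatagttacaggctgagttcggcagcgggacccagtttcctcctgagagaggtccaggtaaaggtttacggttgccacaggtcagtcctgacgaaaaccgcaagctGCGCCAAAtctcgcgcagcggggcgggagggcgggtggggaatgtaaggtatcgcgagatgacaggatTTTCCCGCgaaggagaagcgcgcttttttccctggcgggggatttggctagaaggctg
UHRF1: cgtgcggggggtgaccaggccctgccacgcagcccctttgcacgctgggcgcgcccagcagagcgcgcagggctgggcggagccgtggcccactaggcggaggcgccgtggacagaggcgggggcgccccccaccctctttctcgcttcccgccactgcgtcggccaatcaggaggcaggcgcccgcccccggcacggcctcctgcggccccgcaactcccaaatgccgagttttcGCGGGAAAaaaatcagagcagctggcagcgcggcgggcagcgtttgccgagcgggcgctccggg
LIG1: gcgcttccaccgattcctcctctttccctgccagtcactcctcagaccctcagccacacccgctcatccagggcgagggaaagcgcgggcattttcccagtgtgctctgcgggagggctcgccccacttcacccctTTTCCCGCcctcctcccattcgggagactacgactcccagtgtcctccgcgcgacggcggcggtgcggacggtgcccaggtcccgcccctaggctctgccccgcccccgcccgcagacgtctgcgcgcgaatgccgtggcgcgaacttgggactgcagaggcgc
SLBP: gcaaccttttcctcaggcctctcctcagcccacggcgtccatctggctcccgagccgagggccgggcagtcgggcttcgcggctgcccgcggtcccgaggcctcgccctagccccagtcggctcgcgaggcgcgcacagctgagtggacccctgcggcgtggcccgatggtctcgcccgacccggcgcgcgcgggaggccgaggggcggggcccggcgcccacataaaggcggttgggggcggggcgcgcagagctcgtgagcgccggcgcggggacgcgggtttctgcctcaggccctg

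The letters searched as E2F-type were TTTCCCGC, TTTCGCGC, TTTGCCGC and TTTGGCGC on both strands. They occurred in 26 of the 63 promoters of replication genes (41.3%), against 1164 of all 35116 promoters (3.31%) and 4.15% of the promoters of measured genes. By gene, 25 of 49 replication genes had a match (51.0%), against 3.99% of all genes in the table and 5.51% of measured genes. In the printed sequences the match began 5 bases before the start in CLSPN, 14 before it in UHRF1 and 114 before it in LIG1, and HELLS had matches 76 and 8 bases before its start. SLBP had none of these letters in this window. The CCAAT box (CCAAT) occurred in 57.1% of the promoters of replication genes, against 34.6% of all promoters and 34.5% of those of measured genes. The GC box GGGCGG occurred in 77.8%, against 45.0% and 57.3%. Of 35 E2F-type matches, 4 overlapped a GC box. The CHR element TTTGAA, known from genes of late cell cycle phases, occurred in 3.17%, against 15.2% and 12.3%. The cyclic AMP element TGACGTCA occurred in 4.76%, against 1.85% and 2.33%, and the E-box CACGTG in 12.7%, against 7.26% and 8.32%.

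Genes with a match had a lower median with BMI1 knockdown than genes without one, and the same median to the second decimal with FAL-1 knockdown. The 25 genes with an E2F-type match had a median change of -0.56 with BMI1 knockdown and -0.53 with FAL-1 knockdown, and the 24 genes without one had -0.44 and -0.53. The BMI1 difference was not particular to these letters. The 30 genes with a CCAAT box had -0.60 and -0.57, and the 19 without had -0.37 and -0.47. For the GC box, 39 genes had -0.56 and -0.55, and the 10 without had -0.41 and -0.50. The E-box went the other way, with -0.42 and -0.44 in 8 genes and -0.53 and -0.56 in the other 41. The cyclic AMP and CHR elements occurred in only 3 and 2 genes. LIG1, which has a match, and SLBP, which has none in the window, were both among the genes nearest to their controls.

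**Figure D3:**
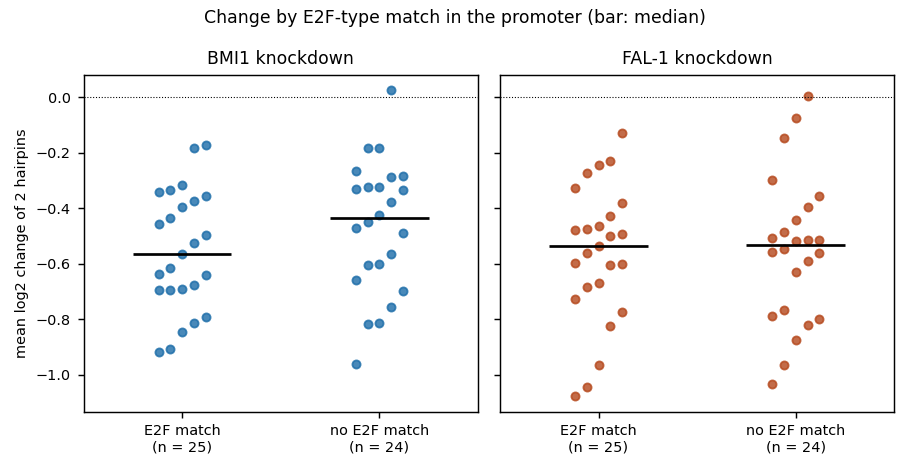
Mean log2 change of the 2 hairpins for each gene with a RefSeq promoter, split by whether the promoter holds an E2F-type match (n = 25) or not (n = 24), with bars at the medians. The point clouds overlap over nearly their whole range, with medians of -0.56 and -0.44 for BMI1 and of -0.53 in both classes for FAL-1.

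Among the licensing factors, ORC1, the ATPase subunit of the origin recognition complex that is made afresh in each cycle, had the lowest average change. ORC1 read 8.37 and 8.58 with the BMI1 hairpins, against 9.23 in BMI1 Ctrl, and 8.96 and 7.46 with the FAL-1 hairpins, against 8.98 in FAL-1 Ctrl. Both BMI1 arrays were below their control, whereas only FAL-1 shRNA2 was clearly below its own. The mean change was -0.76 ± 0.14 for BMI1 and -0.77 ± 1.07 for FAL-1 (SD, n = 2 hairpins each, as in all such values that follow). ORC2, another subunit of the complex, had the highest average in this role. It read 10.61 and 10.34 with the BMI1 hairpins, against 10.45 in BMI1 Ctrl, and 10.19 and 9.80 with the FAL-1 hairpins, against 10.51 in FAL-1 Ctrl. The BMI1 arrays thus lay on either side of their control, and both FAL-1 arrays lay below theirs. CDC6, which loads the helicase with the complex, had -0.76 and -0.83 with the BMI1 hairpins and 0.19 and -1.18 with the FAL-1 hairpins. GMNN, the inhibitor of the loading factor CDT1, had -0.32 and -1.07 with the BMI1 hairpins and -0.01 and -1.06 with the FAL-1 hairpins. CDT1 itself ranged over the hairpins from -0.86 to -0.09 and ORC6 from -1.07 to -0.13.

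All 6 subunits of the MCM2-7 helicase lay below BMI1 Ctrl with both BMI1 hairpins, where 30.7% of all genes did. With both FAL-1 hairpins 2 of 6 (MCM3 and MCM6) lay below FAL-1 Ctrl, close to the share of all genes (27.7%). MCM6 read 9.54 and 9.48 with the BMI1 hairpins, against 10.32 in BMI1 Ctrl, and 10.37 and 9.25 with the FAL-1 hairpins, against 10.41 in FAL-1 Ctrl. Its BMI1 change of -0.81 ± 0.05 was close in both hairpins, and its FAL-1 change of -0.60 ± 0.79 came from FAL-1 shRNA2. MCM5 was nearest to the controls, at 9.71 and 9.47 with the BMI1 hairpins, against 9.81 in BMI1 Ctrl, and at 10.24 and 9.21 with the FAL-1 hairpins, against 10.08 in FAL-1 Ctrl. FAL-1 shRNA1 left all 6 subunits close to the control, between -0.04 for MCM6 and 0.15 for MCM5. With FAL-1 shRNA2 the same subunits lay between -1.54 for MCM3 and -0.80 for MCM2.

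The factors that activate the helicase included CDC45, a part of the active helicase, which had the lowest mean BMI1 change of all 55 genes. CDC45 read 8.97 and 8.78 with the BMI1 hairpins, against 9.84 in BMI1 Ctrl, and 8.05 with FAL-1 shRNA2 and 9.77 with FAL-1 shRNA1, against 9.78 in FAL-1 Ctrl. The changes were -0.96 ± 0.13 for BMI1 and -0.87 ± 1.22 for FAL-1, so that with FAL-1 the hairpins differed by more than the mean change. DBF4, the regulatory subunit of the CDC7 kinase, was nearest to the controls in this role. It read 7.42 and 7.17 with the BMI1 hairpins, against 7.56 in BMI1 Ctrl, and 7.64 and 6.85 with the FAL-1 hairpins, against 7.64 in FAL-1 Ctrl. Its catalytic partner CDC7 had -0.48 and -1.21 with the BMI1 hairpins and -0.10 and -1.09 with the FAL-1 hairpins. MCM10, which helps to switch the helicase on, had -0.58 and -0.74 with the BMI1 hairpins and -0.07 and -1.57 with the FAL-1 hairpins. The GINS subunits GINS1, GINS2, GINS3 and GINS4 had average changes between -0.65 for GINS2 and -0.45 for GINS3. All 8 genes of this role lay below BMI1 Ctrl with both hairpins (30.7% of all genes), and 6 lay below FAL-1 Ctrl with both (27.7%).

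**Figure D4:**
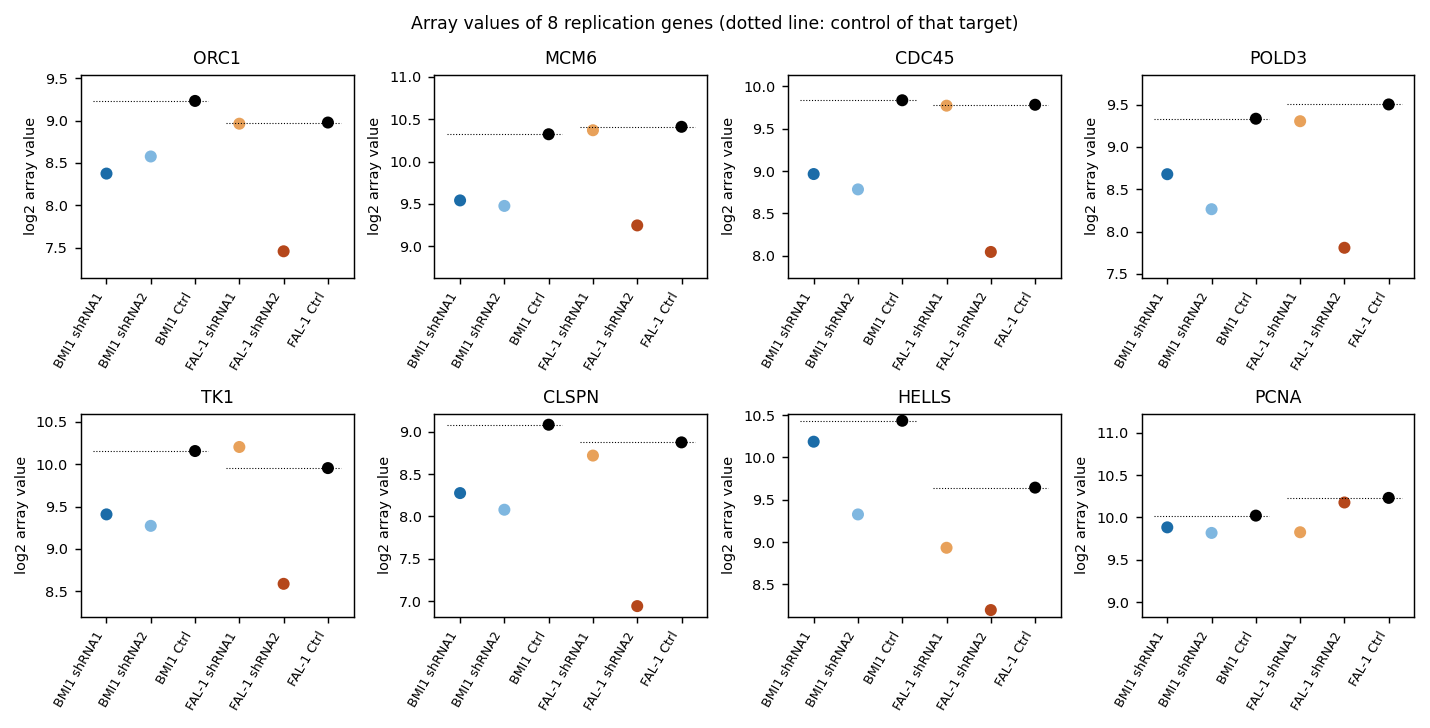
Log2 array values of 8 replication genes on each array, with dotted lines at the control of each target and the same height of axis in every panel. CLSPN, CDC45, ORC1, POLD3, TK1 and MCM6 share a pattern in which both BMI1 hairpins and FAL-1 shRNA2 lie below their controls and FAL-1 shRNA1 lies near its control, HELLS has all hairpins below their controls, and PCNA spans only 9.82 to 10.23.

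Among the polymerases, POLD3, an accessory subunit of polymerase delta, had the lowest average change and POLD2, another accessory subunit, the highest. POLD3 read 8.68 and 8.27 with the BMI1 hairpins, against 9.33 in BMI1 Ctrl, and 9.30 and 7.81 with the FAL-1 hairpins, against 9.50 in FAL-1 Ctrl. Every hairpin lay below its control, with changes of -0.86 ± 0.29 for BMI1 and -0.95 ± 1.06 for FAL-1. POLD2 read 10.16 and 10.60 with the BMI1 hairpins, against 10.56 in BMI1 Ctrl, and 10.72 and 10.28 with the FAL-1 hairpins, against 10.80 in FAL-1 Ctrl. The lowest values with FAL-1 shRNA2 belonged to POLE2, an accessory subunit of polymerase epsilon, at -1.87 and to PRIM1, the catalytic primase subunit, at -1.84. With FAL-1 shRNA1 these genes stood at -0.06 and -0.09. The catalytic subunits POLA1, POLD1 and POLE had average changes of -0.72, -0.53 and -0.39. The accessory subunit POLA2 of polymerase alpha and the large primase subunit PRIM2 had -0.32 and -0.42.

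In polymerase delta, polymerase epsilon and ribonucleotide reductase, the subunits' average changes did not all have the same sign. All average changes were negative in the origin recognition complex, MCM2-7, GINS, polymerase alpha-primase, the clamp loader and the single-strand binding protein RPA. POLD4, the smallest subunit of polymerase delta and not one of the 55, lay above its control with all 4 hairpins, with 0.24 and 0.39 for BMI1 and 0.51 and 0.63 for FAL-1. The histone-fold subunits POLE3 and POLE4 of polymerase epsilon had average changes of 0.01 and 0.08. Of the origin recognition subunits outside the 55, ORC3, ORC4 and ORC5 had average changes of -0.10, -0.11 and -0.24, against -0.76 for ORC1. In ribonucleotide reductase, the subunits RRM1 and RRM2 that serve S phase had -0.38 and -0.60, and -0.37 and -0.57, with the BMI1 hairpins. With the FAL-1 hairpins RRM1 had -0.05 and -0.98 and RRM2 had -0.11 and -0.90. RRM2B, the p53-inducible small subunit, had the opposite sign throughout, with 0.45 and 0.48 for BMI1 and 0.61 and 0.85 for FAL-1. None of these subunits passed limma's test, and these complexes were picked out after their values were seen.

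**Figure D5:**
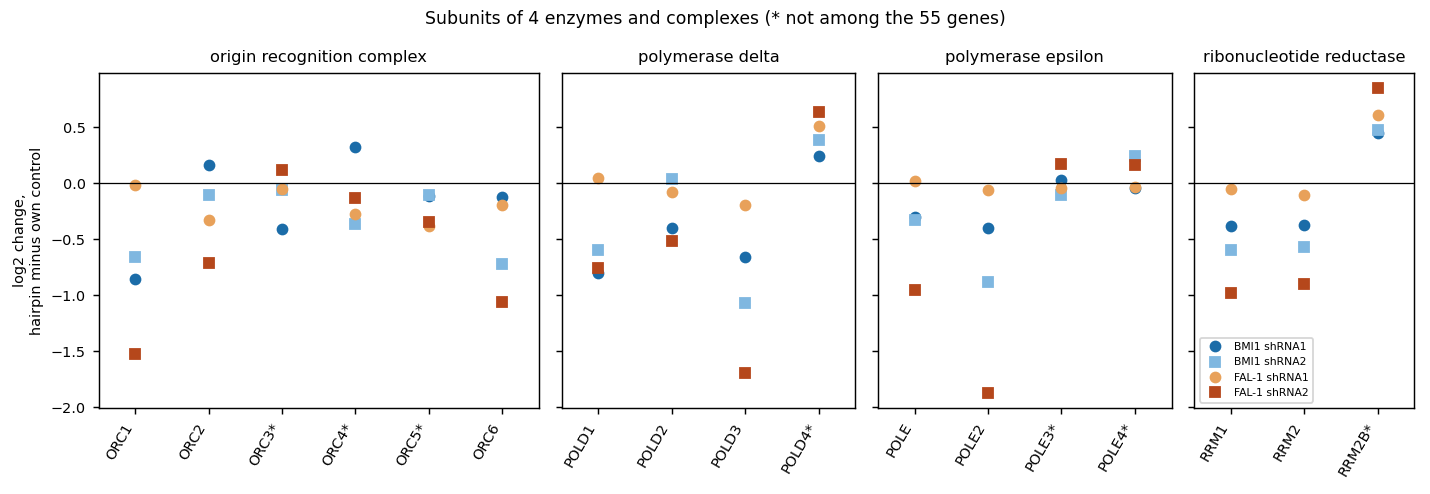
Log2 change against the target's own control for the subunits of the origin recognition complex, polymerase delta, polymerase epsilon and ribonucleotide reductase, with a symbol for each hairpin and an asterisk on subunits outside the 55 genes. POLD4 and RRM2B lie above 0 with all 4 hairpins, while POLD3, POLE2, RRM1 and RRM2 lie below 0 with all 4.

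The clamp PCNA and the ligase LIG1 were among the genes nearest to the controls, and the single-strand binding protein was so with some hairpins. PCNA, the sliding clamp, read 9.88 and 9.82 with the BMI1 hairpins, against 10.02 in BMI1 Ctrl, and 9.83 and 10.18 with the FAL-1 hairpins, against 10.23 in FAL-1 Ctrl. It was the only one of the 55 genes that was lower with FAL-1 shRNA1 (-0.41) than with FAL-1 shRNA2 (-0.05), and it is singled out because of these values. LIG1, the ligase that seals Okazaki fragments, read 8.20 and 8.24 with the BMI1 hairpins, against 8.40 in BMI1 Ctrl, and 8.52 and 8.21 with the FAL-1 hairpins, against 8.50 in FAL-1 Ctrl. Its average change was the highest of the 55 genes at -0.16. With FAL-1 shRNA2, RPA1, RPA2 and RPA3, which coat single-stranded DNA, had -0.14, -0.66 and -0.23. With BMI1 shRNA2 they had -0.62, -0.49 and -0.19, so that RPA1 lay below the median of the 55 genes with that hairpin. FEN1, the flap nuclease, had -0.26 and -0.49 with the BMI1 hairpins and 0.28 and -0.57 with the FAL-1 hairpins.

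The clamp loader differed from its clamp. RFC1, the large loader subunit, read 10.00 and 9.16 with the BMI1 hairpins, against 10.39 in BMI1 Ctrl, and 10.35 and 9.74 with the FAL-1 hairpins, against 10.64 in FAL-1 Ctrl. All 4 hairpin arrays lay below their control, and BMI1 shRNA2 had -1.23, the lowest change among the 55 with that hairpin. The small subunits RFC2, RFC3, RFC4 and RFC5 had between -1.37 and -0.998 with FAL-1 shRNA2 and between -0.83 and -0.37 with BMI1 shRNA2. Of the 11 genes of this role, 11 lay below BMI1 Ctrl with both hairpins (30.7% of all genes) and 8 below FAL-1 Ctrl with both (27.7%).

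The enzymes that supply deoxynucleotides, 4 of the 55, all lay below BMI1 Ctrl with both hairpins, where 30.7% of all genes did. TK1, the cytosolic thymidine kinase, read 9.41 and 9.27 with the BMI1 hairpins, against 10.16 in BMI1 Ctrl, and 10.20 and 8.59 with the FAL-1 hairpins, against 9.95 in FAL-1 Ctrl. Its FAL-1 hairpins thus lay on opposite sides of the control, at 0.25 and -1.37. TYMS, thymidylate synthase, was nearest to the controls, at 11.14 and 11.11 with the BMI1 hairpins, against 11.56 in BMI1 Ctrl, and at 11.63 and 11.13 with the FAL-1 hairpins, against 11.70 in FAL-1 Ctrl.

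Among the genes that protect the fork, CLSPN, the adaptor that passes the stalled-fork signal to CHK1, had the lowest average change of all 55 genes, -0.98, and 0.152% of all genes had a lower one. CLSPN read 8.28 and 8.08 with the BMI1 hairpins, against 9.08 in BMI1 Ctrl, and 8.72 and 6.94 with the FAL-1 hairpins, against 8.88 in FAL-1 Ctrl. Its second probe set gave -0.58 and -0.84 with the BMI1 hairpins and 0.06 and -1.18 with the FAL-1 hairpins, so the probe sets differ in sign with FAL-1 shRNA1. TIMELESS, of the fork protection complex, was nearest to the controls. It read 8.69 and 9.07 with the BMI1 hairpins, against 9.06 in BMI1 Ctrl, and 9.23 and 8.25 with the FAL-1 hairpins, against 9.22 in FAL-1 Ctrl. TIPIN, its partner, had -0.46 and -0.92 with the BMI1 hairpins and -0.07 and -0.93 with the FAL-1 hairpins. WDHD1, which couples the helicase to polymerase alpha, had the lowest unadjusted p of the 55 for FAL-1. It read 9.89 and 9.59 with the BMI1 hairpins, against 10.07 in BMI1 Ctrl, and 9.54 and 8.72 with the FAL-1 hairpins, against 10.16 in FAL-1 Ctrl, a FAL-1 change of -1.03 ± 0.57. MCM8, a helicase of recombination repair, had an average change of -0.46.

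Of the genes that rebuild chromatin behind the fork, HELLS and UHRF1 had the lowest average changes and SLBP the highest. HELLS, a chromatin remodeller, read 10.18 and 9.33 with the BMI1 hairpins, against 10.43 in BMI1 Ctrl, and 8.93 and 8.20 with the FAL-1 hairpins, against 9.64 in FAL-1 Ctrl. Its controls differ by -0.79, so the value depends on the control: set against FAL-1 Ctrl the BMI1 change is 0.11, and set against BMI1 Ctrl the FAL-1 change is -1.87. UHRF1, which brings the maintenance methyltransferase DNMT1 to newly copied DNA, read 9.74 and 9.68 with the BMI1 hairpins, against 10.63 in BMI1 Ctrl, and 10.22 and 9.22 with the FAL-1 hairpins, against 10.45 in FAL-1 Ctrl. The BMI1 change of -0.92 ± 0.04 was close in both hairpins, but a second, dimmer UHRF1 probe set gave 0.10 and -0.02 with the BMI1 hairpins and 0.03 and 0.23 with the FAL-1 hairpins.

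SLBP, which binds the stem-loop of replication-dependent histone mRNAs, read 10.30 and 10.24 with the BMI1 hairpins, against 10.60 in BMI1 Ctrl, and 10.50 and 10.38 with the FAL-1 hairpins, against 10.43 in FAL-1 Ctrl. The changes were -0.32 ± 0.05 for BMI1 and 0.01 ± 0.09 for FAL-1, and limma's test of the difference was not passed (adjusted p = 0.9999). DNMT1 had -0.38 and -0.37 with the BMI1 hairpins and 0.01 and -0.56 with the FAL-1 hairpins. The histone chaperone subunits CHAF1A and CHAF1B had average changes of -0.36 and -0.68.

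Further genes of the same process were taken from a list that does not overlap the 55. Of 38 other origin and fork genes, 37 were measured. With BMI1 knockdown 28 of them lay below the control with both hairpins and 3 above it with both, where 30.7% and 32.9% of all genes did. With FAL-1 knockdown 23 lay below and 5 above, where 27.7% and 37.2% of all genes did. Their median average change was -0.31, against 0.02 over all genes, and none passed limma's test. The largest average changes were -0.96 for ATAD5, which unloads the clamp, -0.93 for MTBP, a partner in origin firing, -0.91 for MMS22L, which works in fork repair, and -0.84 for TOP2A, the topoisomerase of chromosome untangling. With FAL-1 shRNA2, ATAD5 had -2.27, MMS22L -1.82, TOP2A -1.64 and MTBP -1.58.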

How the data were processed

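Total RNA of 6 A2780 samples was labelled for Affymetrix 1-colour arrays, per the labels. The authors deposited 33252 probe sets by 6 arrays on a log2 scale, as judged from the range of the values. Per the submitters' processing notes these log2 values came from RMA, which corrects background, normalizes and summarises probes. The sources used here give neither its version nor whether all arrays were normalized in one run.

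Probe sets were named from the platform annotation: 19460 had 1 symbol, 1754 had several and 12038 were not listed. Probe sets naming more than 1 gene were dropped, apart from the one for BMI1. This left 18418 genes, 769 of them with several probe sets.

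Groups followed the labels. One limma 3.58.1 fit (R 4.3.3, lmFit and eBayes) with 4 group means compared each target's hairpins with that target's control, and gave the mean and the difference of both knockdown changes, two-sided, with Benjamini-Hochberg adjustment over all genes at 0.05. Promoters were searched and figures drawn with Python 3.11.15, pandas 2.3.3 and matplotlib 3.10.9. In 10 runs on simulated data (BMI1 comparison, 18418 genes), limma called 0% of the genes set 2-fold apart and 16.8% of those set 4-fold apart, with 1.8 false calls on average.

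The members and all gene lists were chosen with earlier results of these data known. All values are given for the lowest and highest average change in each role and for members whose probe sets disagree in sign. Up to 4 genes of each other list are named by the largest average change. PCNA, WDHD1 and the subunits compared within complexes were chosen after their values were seen. Alternatives were the other target's control, both controls pooled, quantile and cyclic loess normalization, filters on dim genes, the mean of probe sets, a robust prior, a trend in the variance, a replicate block for hairpin number, and leaving out each hairpin array.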

Additional observations from a re-analysis of the deposited data

Results flagged for a closer look

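For 5 of the 62 genes measured in the other lists and for 3 marker genes, both BMI1 hairpins lay on one side of their control and both FAL-1 hairpins on the other. This was so for 10.8% of all 18418 genes. Limma's test of the difference itself, BMI1 change minus FAL-1 change, was not passed by any of them (adjusted p = 0.9999 for each). RNASEH2C, a subunit of the nuclease that removes ribonucleotides from DNA, had a difference of -0.25. TK2, the mitochondrial thymidine kinase, had 0.43. Of the E2F family, E2F3 had 0.29, E2F4 had -0.21 and E2F7 had -0.24. Of the markers, EPCAM had 0.55, CD3E had 0.26 and ALB had -0.053. None of the 55 replication genes had this pattern. Groups of 1 or 2 arrays are too small to look for a single array that stands apart.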

How the results depend on the processing

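No replication gene passed the threshold in any of the 56 combinations of alternative fit and comparison that were run, and the lowest adjusted p was 0.2235. A median or a gene's value counted as unchanged if it moved by less than the SD between hairpins, and a count if it moved by at most 1.5-fold. By that rule 165 of 169 summary values and 2248 of 2307 values of single genes were unchanged. Leaving out a hairpin cannot move a gene's value that far. The filters on dim genes, the variance trend, the robust prior and the replicate block do not alter a gene's value at all. The average of both knockdowns is also the same with pooled controls or the other target's control. Agreement in all those fits was fixed in advance, so these totals say little about robustness. The moves of the medians with a hairpin left out, given below, also counted as unchanged. The median change ran from -0.48 to -0.42 for BMI1 and from -0.61 to -0.52 for FAL-1 over the other settings. Leaving out 1 hairpin array moved it between -0.59 and -0.38 for BMI1 and between -0.998 and -0.06 for FAL-1, so FAL-1 shRNA2 decides the FAL-1 value. The BMI1 minus FAL-1 median turned sign when a hairpin was left out, between -0.40 and 0.55. Genes at least 1.5-fold lower with both FAL-1 hairpins numbered 1 with pooled controls and 1 with the other target's control, in place of 2. When each hairpin array was left out in turn, that count ran from 2 to 45, with 45 without FAL-1 shRNA1, and the BMI1 count of 9 ran from 9 to 28, with 28 without BMI1 shRNA1. With 1 hairpin left, such a count needs only that hairpin. With the hairpin number as a replicate block, 0 replication genes passed. The medians stayed at -0.47 and -0.53, which such a block cannot move. Replication genes at an unadjusted p under 0.05 in limma then numbered 5 for BMI1, 8 for FAL-1 and 13 for the average. Same-numbered hairpins deviated together with r = 0.275 over 18418 genes in the 2 targets, but the numbers name unrelated hairpins and pair nothing by design.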

Other observations

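Transcription factors of the E2F, DP and RB family, which regulate many replication genes, were measured for 13 of 13 genes listed. With BMI1 knockdown 8 lay below the control with both hairpins and 3 above it with both, where 30.7% and 32.9% of all genes did. With FAL-1 knockdown 7 lay below and 4 above, where 27.7% and 37.2% of all genes did. None passed limma's test in any comparison. The largest average changes were -0.81 for E2F8 and -0.79 for E2F2, -0.78 for RBL1, which encodes the pocket protein p107, and -0.62 for TFDP1, the dimer partner of E2F proteins. E2F2 had -0.52 and -0.67 with the BMI1 hairpins and -0.72 and -1.25 with the FAL-1 hairpins, so all 4 lay below their controls. RB1 itself had an average change of -0.03.

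Of 14 further genes of deoxynucleotide supply, 12 were measured. With BMI1 knockdown 5 lay below the control with both hairpins and 4 above, where 30.7% and 32.9% of all genes did. With FAL-1 knockdown 5 lay below and 3 above, where 27.7% and 37.2% of all genes did. The counts below the control were thus somewhat over the background, and those above it were close to or under it. None passed limma's test. SHMT1, a folate enzyme that feeds thymidylate synthesis, had the lowest average change, -1.14. It read 7.68 and 7.90 with the BMI1 hairpins, against 9.04 in BMI1 Ctrl, and 8.69 and 6.87 with the FAL-1 hairpins, against 8.81 in FAL-1 Ctrl. RRM2B, the p53-inducible reductase subunit, had the next largest average change, 0.59, on the higher side. DUT, which removes dUTP, had -0.55, and DCK, the deoxycytidine kinase, -0.38.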
